A study of Mus musculus with 4 samples.

Results

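Asns, Pycr1, Aldh18a1, Gpt2, Got1, Got2 and Glul encode enzymes that make asparagine, proline, alanine, aspartate and glutamine by routes linked to glutamate. Pck2 encodes an enzyme that makes phosphoenolpyruvate from oxaloacetate. These 8 genes were taken by symbol from the gene list of the deposited matrices, where they stood among 32286 features. The list of 8 was drawn up with earlier results of these data known. Their RNA was followed in single nuclei from the cortex plus hippocampus of mice that were 5 weeks old. There were 4 libraries of 1 mouse each, 2 with the label Sel1L fl/fl and 2 with the label Sel1L SynCre. Mice labelled Sel1L fl/fl carried Sel1L alleles flanked by loxP sites and served as the controls. Mice labelled Sel1L SynCre carried the same floxed alleles together with Cre driven by the Synapsin I promoter, which is active in postmitotic neurons. The study describes the loss of SEL1L, the scaffold protein of an ER-associated degradation complex, as uneven between regions, partial in cortex, near complete in CA3 and DG and mostly absent in CA1, so that a class of nuclei in Sel1L SynCre mice can mix neurons with and without SEL1L. Values below stand in the order Sel1L fl/fl 1, Sel1L fl/fl 2, Sel1L SynCre 1 and Sel1L SynCre 2.

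Glutamate is the hub of these reactions. Asns, asparagine synthetase, moves the amide nitrogen of glutamine onto aspartate, and the aspartate itself comes from the aminotransferases Got1 in the cytosol and Got2 in mitochondria. Aldh18a1 turns glutamate into the precursor of proline and Pycr1 completes the ring reduction in mitochondria. Gpt2 is the mitochondrial alanine aminotransferase, Pck2 the mitochondrial phosphoenolpyruvate carboxykinase, and Glul is glutamine synthetase, which in the brain is best known from astrocytes, where it converts the glutamate taken up from synapses. Several of these genes, Asns above all, are textbook targets of ATF4, a transcription factor made when amino acids are scarce or the ER is under stress, and ATF4 binds composite sites that it shares with C/EBP proteins.

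The stretches ahead of the transcription start are given for the members that passed a test between labels. A part of ATF4 in those calls was not tested. Sequences are from RefSeq (GRCm38.p6), in which all 8 members matched by symbol. Asns lies on chromosome 6 (7675169 to 7693254, minus strand), Pycr1 on chromosome 11 (120635712 to 120643769, minus), Aldh18a1 on chromosome 19 (40550257 to 40588463, minus) and Gpt2 on chromosome 8 (85492576 to 85527560, plus), in the GRCm38 coordinates of GENCODE vM21. Pck2 lies on chromosome 14 (55540266 to 55551242, plus), Got1 on chromosome 19 (43499752 to 43524605, minus), Got2 on chromosome 8 (95864134 to 95888547, minus) and Glul on chromosome 1 (153899944 to 153909723, plus). Each line gives the 120 bases ahead of the outermost annotated start of a member that passed a test in at least 1 class of nuclei, 5′ to 3′ on the strand of the gene. Capitals mark TGATGNAA or its reverse complement TTNCATCA, the core of the C/EBP-ATF composite element.
Asns: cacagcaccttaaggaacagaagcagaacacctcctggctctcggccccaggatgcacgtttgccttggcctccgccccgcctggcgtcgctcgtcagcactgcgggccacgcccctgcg
Pycr1: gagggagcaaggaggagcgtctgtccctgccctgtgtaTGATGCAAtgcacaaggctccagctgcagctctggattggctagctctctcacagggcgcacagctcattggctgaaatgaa
Aldh18a1: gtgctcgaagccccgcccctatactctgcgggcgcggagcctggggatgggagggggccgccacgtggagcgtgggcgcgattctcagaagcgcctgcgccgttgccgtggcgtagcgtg
Gpt2: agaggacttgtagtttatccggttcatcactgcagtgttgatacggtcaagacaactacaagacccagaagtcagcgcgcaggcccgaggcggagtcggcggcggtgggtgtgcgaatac
Pck2: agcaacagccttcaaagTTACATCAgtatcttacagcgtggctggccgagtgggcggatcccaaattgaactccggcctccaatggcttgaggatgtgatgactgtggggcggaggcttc
Got1: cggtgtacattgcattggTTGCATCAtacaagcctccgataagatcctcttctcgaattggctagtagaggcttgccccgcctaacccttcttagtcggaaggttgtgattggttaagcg

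For Asns the RefSeq start lies 45 bases downstream of the outermost GENCODE start, and its match falls between them, in the 30 bases at chr6:7693214-7693243 (minus strand).
Asns match: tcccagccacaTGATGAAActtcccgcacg

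In windows from 250 bases before to 50 bases after the RefSeq start, searched on both strands, 4 of the 8 members held the motif. The first base of the match stood at -23 in Asns, -103 in Pycr1, -103 in Pck2 and -102 in Got1, counted from the RefSeq start. No match of these letters was found in the windows of Aldh18a1, Gpt2, Got2 and Glul. Of all 32851 promoter windows of the same length, 1304 (3.97%) held the motif. A match of letters is a description of the window and is not evidence of binding. The members include textbook ATF4 targets and were chosen with earlier results known. The 4 of 8 beside 3.97% are therefore no independent evidence.

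The 4 libraries held 11104, 7838, 7524 and 6786 nuclei after filtering, with 101213847, 68094414, 66622035 and 66160109 unique molecules (UMIs) and medians of 7264, 7261.5, 7382 and 8409 UMIs per nucleus. From 9 to 28 barcodes were shared by any pair of libraries. Of 33252 nuclei, 28831 fell into 20 classes that were named from marker genes, and the UMIs of each class were summed per library (61 to 1848 nuclei and 126420 to 11935949 UMIs per sum). Cre UMIs went against 1 label. The library labelled Sel1L fl/fl 1 held 415 CRE UMIs, Sel1L fl/fl 2 held 0 (which allows up to 3), and the libraries labelled Sel1L SynCre held 235 and 217. Sel1l RNA was not lower under the label Sel1L SynCre (96.9, 90.2, 155 and 128 counts-per-million, CPM, of the library). Sel1l passed the edgeR test as higher in Sst-like (log2 fold change 1.905), Pvalb-like (2.005), DG-like (1.42), OPC-like (1.47) and Lamp5-like nuclei (1.11), with adjusted p from 8.09e-08 to 0.00983. The sources used here do not place the deleted part relative to the counted 3′ ends, so that these UMIs check nothing about the deletion. Derl3, an ER-associated degradation gene induced by ER stress, had 51, 40, 1113 and 674 UMIs, so that Sel1L fl/fl 1 lay with Sel1L fl/fl 2 despite its Cre UMIs. Calls of members that were lost without Sel1L fl/fl 1 are therefore named below. That fit leaves 1 control mouse and no measured spread among controls. Y-linked Ddx3y (4924, 0, 3228 and 3 UMIs) and Xist showed replicate 1 of each label to be male and replicate 2 female.

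Of the 8 members, 6 rose in libraries labelled Sel1L SynCre in at least 1 class, and none fell in any class. Across the 20 classes, 132 of the 160 pairs of member and class had enough UMIs to be tested. Of these 15 passed (edgeR quasi-likelihood, Benjamini-Hochberg adjusted p below 0.05 over all genes of the class), and all 15 were higher. Of all 235680 pairs of gene and class tested, 3999 passed, 2150 of them higher. The classes share the same 4 mice, so that pairs are not independent of each other. Because the members were chosen with earlier results known, these counts are no independent evidence of a direction. Pycr1 entered the Sst-like test only through the Sel1L SynCre libraries, so that its call is no evidence of a direction either. Asns and Aldh18a1 rose in 4 classes each, Gpt2 in 3, Pck2 in 2, and Pycr1 and Got1 in 1 each. In every pair that passed, the lowest Sel1L SynCre value lay above the highest Sel1L fl/fl value. In Sst-like inhibitory neurons 6 of 8 members passed, where 5.04% of all genes tested passed as higher. In oligodendrocyte precursor cell (OPC)-like nuclei 4 of the 7 members tested passed, against 3.78% of all genes. In dentate gyrus (DG)-like granule neurons 2 passed (2.20% of all genes), in Pvalb-like inhibitory neurons 1 (2.37%), in layer 4/5 intratelencephalic (L4/5 IT)-like neurons 1 (1.10%), and in oligodendrocyte-like nuclei 1 (0.697%). With 2 libraries per label, an exact permutation test of a single value cannot give a p below 0.333, so that every p here comes from the fit over all genes. Calls lost without Sel1L fl/fl 1 are named with each member below.

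**Figure D1:**
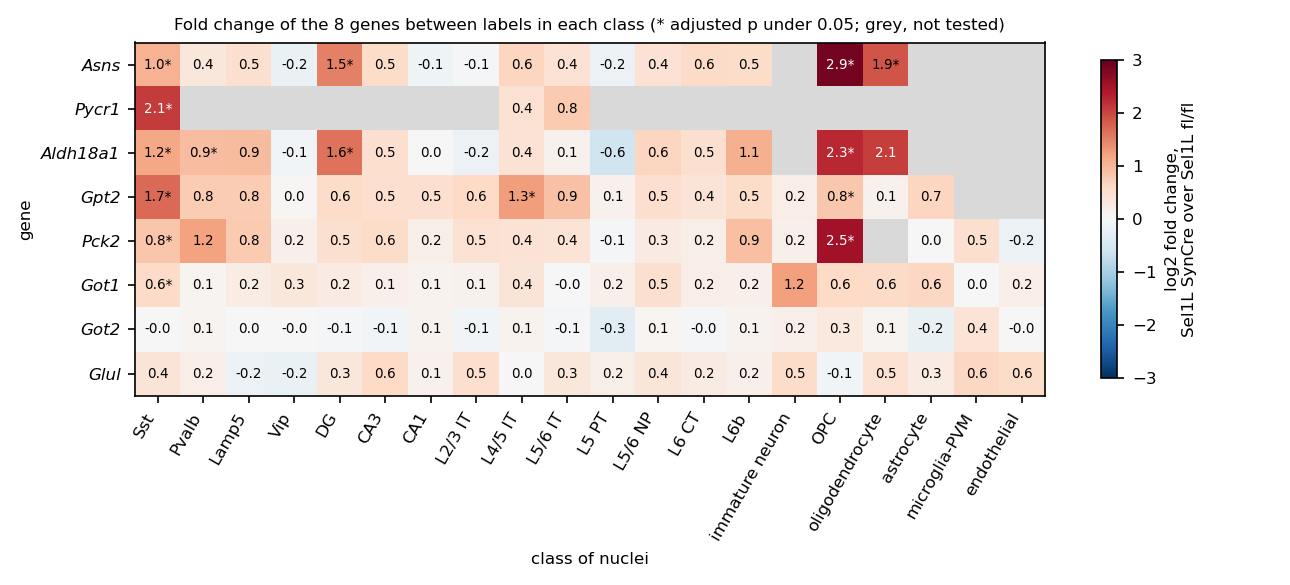
Log2 fold change of Sel1L SynCre over Sel1L fl/fl for each of the 8 members (rows) in each of the 20 classes (columns), from the edgeR fit, with pairs that passed marked and untested pairs blank. All 15 marked pairs are positive, 6 of them in the Sst-like column, and the Got2 and Glul rows hold none.

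In the other 14 classes no member passed. Among their 89 tested pairs, 22 had an unadjusted edgeR p below 0.05, all higher. Of all genes, 1139 of 13225 in CA1-like and 978 of 12134 in CA3-like neurons also had an unadjusted p below 0.05. The lowest adjusted p of a member was 0.0655, and DESeq2 called 1 pair (Gpt2 in L5/6 IT-like neurons, adjusted p = 0.0469). The shares below are at adjusted p and are no background for the 22 pairs. Unadjusted counts of all genes in the other classes are not given here, so that the 22 are a description only. In most of these classes few genes of any kind passed, in either direction. The share was 0.00756% in CA1-like, 0.0330% in CA3-like, 0.0242% in L5 PT-like, 0.0610% in L5/6 NP-like, 0.0427% in L6b-like and 0.0175% in Vip-like neurons. It was 0.440% in L2/3 IT-like, 0.288% in L5/6 IT-like, 0.591% in L6 CT-like, 0.921% in Lamp5-like and 0% in immature neuron-like nuclei. Among other cells it was 0.961% in astrocyte-like, 0.0485% in endothelial-like and 0.0840% in microglia-PVM-like nuclei.

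Asns rose most in OPC-like nuclei. There it stood at 10.8, 13.8, 112 and 67.2 CPM on the TMM scale of edgeR (used for all comparisons between labels below), and both Sel1L SynCre values lay far above both Sel1L fl/fl values. The log2 fold change was 2.88 ± 0.26 (SE, n = 2 libraries per label, 7.36-fold, edgeR adjusted p = 8.65e-14). In Sst-like neurons Asns was 32.3, 36.9, 73.0 and 69.1 CPM (log2 fold change 1.047 ± 0.18, edgeR adjusted p = 0.000461). The 4 Sst-like values formed 2 close pairs, each label within a narrow range of its own. In DG-like neurons it was 14.3, 14.2, 54.97 and 26.1 CPM (1.51 ± 0.26, edgeR adjusted p = 0.00409). The Sel1L fl/fl libraries were almost equal there and the Sel1L SynCre libraries differed widely from each other, and the call was lost without Sel1L fl/fl 1 (adjusted p = 0.0616) and by DESeq2 (adjusted p = 0.143). In oligodendrocyte-like nuclei Asns was low, at 4.79, 4.68, 15.7 and 19.7 CPM (1.89 ± 0.34, edgeR adjusted p = 0.0355), and that call was lost by DESeq2 (0.0615) and without Sel1L SynCre 2 (0.144).

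Asns did not move with the label everywhere. In CA1-like pyramidal neurons its values of 15.2, 17.7, 15.3 and 14.4 CPM overlapped (log2 fold change -0.14, 95% interval -0.58 to 0.31). In L2/3 IT-like neurons they were 14.4, 15.7, 14.4 and 14.4 CPM (-0.07, -0.43 to 0.30), and in Vip-like neurons 24.2, 29.3, 23.3 and 22.5 CPM (-0.21, -0.73 to 0.31). In these 3 classes the intervals bound any rise well below the change in OPC-like nuclei. In L4/5 IT-like neurons Asns was 16.9, 19.0, 26.6 and 28.9 CPM (0.64, edgeR adjusted p = 0.082), with no overlap but without a call. In Pvalb-like neurons Asns did not pass, and its log2 fold change ran from -0.07 to 0.67 over the main and alternative fits. Over all 16 classes tested, the Asns log2 fold change ranged from -0.21 to 2.88 with a median of 0.51, and 12 were positive.

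**Figure D2:**
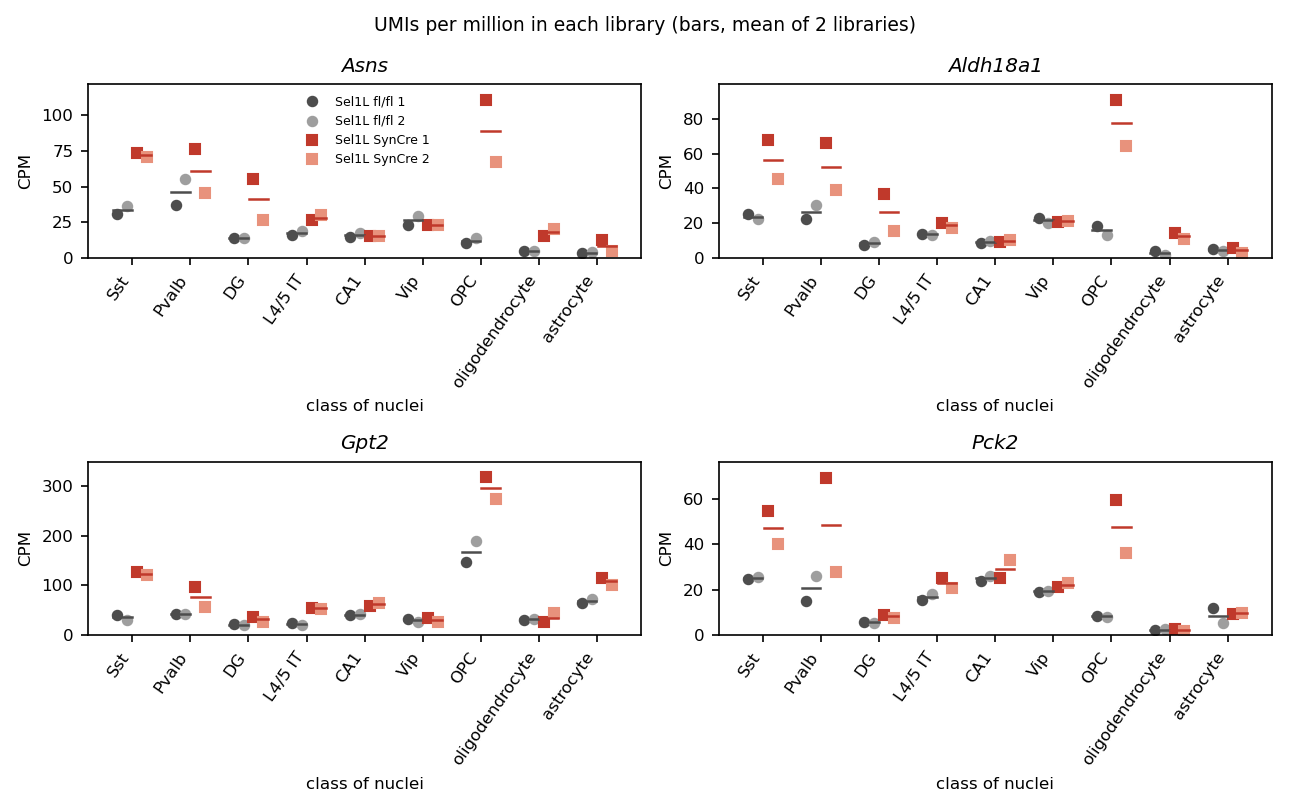
Levels of Asns, Aldh18a1, Gpt2 and Pck2 in 9 classes, in CPM of the class (not TMM-scaled), with 1 point per library and a bar at the mean of each label. In OPC-like nuclei the Asns points of Sel1L SynCre sit at 111 and 67.2 against 10.4 and 13.8 in Sel1L fl/fl.

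Of the proline genes, Aldh18a1 rose in OPC-like, Sst-like, DG-like and Pvalb-like nuclei, and Pycr1 in Sst-like neurons. Aldh18a1 in OPC-like nuclei was 19.1, 13.2, 92.0 and 64.3 CPM (log2 fold change 2.25 ± 0.25, 4.77-fold, edgeR adjusted p = 1.17e-10). In Sst-like neurons it was 26.7, 22.6, 67.2 and 44.0 CPM (1.17 ± 0.22, edgeR adjusted p = 0.0012). In both classes the labels were apart, and replicate 1 of Sel1L SynCre was the higher of its pair. In DG-like neurons Aldh18a1 was 7.88, 9.11, 36.6 and 15.4 CPM (1.64 ± 0.32, edgeR adjusted p = 0.00843). Here Sel1L SynCre 1 carried most of the rise, and without it the log2 fold change was 0.86 (adjusted p = 0.155). Without Sel1L fl/fl 1 the adjusted p was 0.116 and without Sel1L fl/fl 2 it was 0.0533. In Pvalb-like neurons Aldh18a1 was 23.4, 31.0, 64.8 and 38.3 CPM (0.94 ± 0.25), with an edgeR adjusted p just under the threshold (0.049998). That call was lost by DESeq2 (0.118), without Sel1L fl/fl 1 (0.0531) and without Sel1L SynCre 1 (0.415). In oligodendrocyte-like nuclei Aldh18a1 was 3.75, 1.75, 14.8 and 10.3 CPM, apart between labels but short of the threshold (2.07, edgeR adjusted p = 0.0999). It entered that test only through the Sel1L SynCre libraries, so that its difference there is no evidence of a direction. Without Sel1L fl/fl 1 or Sel1L fl/fl 2, which leaves 1 control mouse, its log2 fold change was 2.79 or 1.73.

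Pycr1 was scarce, and only 3 classes held enough of its UMIs for a test. In Sst-like neurons 4, 3, 15 and 9 UMIs were counted, which correspond to 1.48, 1.65, 8.00 and 5.50 CPM (log2 fold change 2.09 ± 0.59, edgeR adjusted p = 0.0281). The filter on low counts was met there only in the Sel1L SynCre libraries, so that Pycr1 was testable only because it was high under that label. The estimate rests on few molecules, and the call was lost by DESeq2 (0.329), without Sel1L fl/fl 1 (0.127) and without either Sel1L SynCre library (0.414 and 0.0761). In L5/6 IT-like and L4/5 IT-like neurons its log2 fold changes were 0.79 and 0.45 with intervals that spanned 0.

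Gpt2, which links glutamate to alanine in mitochondria, rose in Sst-like, OPC-like and L4/5 IT-like nuclei. Its log2 fold change was positive in all 18 classes tested, with a median of 0.55 and a lowest value of 0.03 in Vip-like neurons. In 12 classes the unadjusted edgeR p was below 0.05. No share of all genes stands beside these counts and the classes share the same mice, so that they are a description only. In Sst-like neurons Gpt2 was 43.0, 31.4, 126 and 117 CPM (1.69 ± 0.17, 3.23-fold, edgeR adjusted p = 1.3e-06). Both Sel1L SynCre libraries stood far above the higher control, and without Sel1L fl/fl 1 the log2 fold change was 1.95. In L4/5 IT-like neurons it was 24.6, 20.2, 55.9 and 51.4 CPM (1.26 ± 0.15, edgeR adjusted p = 0.00484). In OPC-like nuclei, where Gpt2 was already high in controls, it was 154, 188, 323 and 275 CPM (0.81 ± 0.16, edgeR adjusted p = 0.000194), and that call was lost without Sel1L fl/fl 1 (0.0808). In CA1-like neurons Gpt2 was 42.6, 42.3, 58.7 and 62.6 CPM, with no overlap between labels (0.52, 95% interval 0.22 to 0.81, edgeR adjusted p = 0.326). L5/6 IT-like (23.2, 18.2, 36.5 and 39.8 CPM, edgeR adjusted p = 0.0655) and L2/3 IT-like neurons (30.8, 24.2, 41.1 and 42.2 CPM, edgeR adjusted p = 0.132) did not pass in the main fit. Without Sel1L fl/fl 1, which leaves 1 control mouse, their log2 fold changes were 1.06 and 0.79. In Pvalb-like neurons Gpt2 did not pass either, and its log2 fold change ran from 0.32 to 1.10 over the main and alternative fits. In DG-like neurons, also without a call, it ran from 0.30 to 0.75.

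Pck2, which makes phosphoenolpyruvate from oxaloacetate inside mitochondria, rose in 2 classes. In OPC-like nuclei it was 8.67, 8.04, 60.2 and 36.0 CPM (log2 fold change 2.52 ± 0.31, 5.72-fold, edgeR adjusted p = 2.99e-09). In Sst-like neurons it was 26.3, 25.9, 53.8 and 39.1 CPM (0.84 ± 0.21, edgeR adjusted p = 0.0141). The control pairs were nearly equal in both classes and Sel1L SynCre 1 was the higher of its pair, and the Sst-like call was lost without that library (0.263) and by DESeq2 (0.203). In Pvalb-like neurons Pck2 was 16.0, 26.4, 68.1 and 27.3 CPM, so that 1 library stood far above the other 3 (1.196, edgeR adjusted p = 0.0803). Without Sel1L fl/fl 1, Sel1L fl/fl 2 or Sel1L SynCre 2 its log2 fold change there was 0.85, 1.55 or 1.71. The lowest value over the main and alternative fits was 0.39. A fit without 1 library leaves 1 mouse under a label and measures no spread there. Pck2 overlaps an antisense gene, Gm10876, that the files also count, and the strand setting of the counting is not given in the sources used here, so that its values are uncertain by the reads that the 2 may share.

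The aspartate aminotransferases differed in their calls. Got1, the cytosolic enzyme, was 51.9, 54.5, 77.3 and 82.0 CPM in Sst-like neurons (log2 fold change 0.58 ± 0.16, 1.497-fold, edgeR adjusted p = 0.0261). The labels did not overlap, but the call was lost by DESeq2 (0.298), without Sel1L fl/fl 1 (0.112) and without either Sel1L SynCre library (0.0698 and 0.107). In the other 19 classes Got1 did not pass, and its log2 fold change was positive in 19 of all 20. Got2, the mitochondrial enzyme, passed in none of 20 classes by edgeR or DESeq2, and 0 classes were at an unadjusted p below 0.05 by edgeR. In Sst-like neurons Got2 was 57.9, 56.2, 56.5 and 57.5 CPM, with labels that overlapped, and the 95% interval of its log2 fold change ran from -0.35 to 0.35. Its log2 fold changes over the 20 classes had a median of 0.00 and ranged from -0.34 to 0.40. No test compared Got1 with Got2.

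Glul, which in brain is chiefly an astrocyte enzyme, also passed in none of 20 classes by edgeR or DESeq2, with a lowest adjusted p of 0.265 and 2 classes at an unadjusted p below 0.05. In astrocyte-like nuclei it was 634, 800, 866 and 842 CPM (log2 fold change 0.25, 95% interval -0.13 to 0.64). The Sel1L SynCre values lay above both controls there, and the interval included 0. In microglia-PVM-like nuclei Glul was 181, 184, 247 and 312 CPM (0.61, 95% interval 0.28 to 0.95, adjusted p = 0.265), and in oligodendrocyte-like nuclei 146, 272, 234 and 340 CPM, which overlapped. Without Sel1L fl/fl 2, which leaves 1 control mouse, its log2 fold changes in these 2 classes were 0.62 and 0.97. Glul overlaps Teddm2 on the opposite strand, which the files also count.

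The OPC-like class differed in make-up between labels. Its summed level of 7 oligodendrocyte markers was 3380, 2423, 129 and 229 CPM of the class (not TMM-scaled), and none of the 7 was at 0 in any library. Setting aside nuclei with UMIs of at least 2 of 5 later-stage markers (14.5%, 8.77%, 0% and 1.63% of the class, a rule chosen after seeing the data) left marker sums of 483, 471, 129 and 103 CPM, and the 4 members still passed. A stricter rule with 8 markers, also chosen after seeing the data, set aside 78.3%, 76.3%, 67.6% and 71.1% of the class and left 2 calls, Asns (log2 fold change 3.31, edgeR adjusted p = 7.54e-06) and Aldh18a1 (2.18, 0.00286). Gpt2 (0.62, 0.223) and Pck2 (1.15, 0.383) then did not pass. Only 111, 100, 92 and 71 nuclei were left, in which Asns and Aldh18a1 were too low in Sel1L fl/fl for the filter on low counts. Both genes entered this fit only through the Sel1L SynCre libraries, so that their calls in it are no evidence of a direction. Cre UMIs were counted in OPC-like nuclei, at 13.3, 0, 17.4 and 11.7 CPM of CRE, and in oligodendrocyte-like nuclei at 0.295, 0, 0 and 0. In OPC-like nuclei 8 astrocyte markers summed to 508, 636, 768 and 937 CPM of the class, with Gfap at 0 in Sel1L SynCre 1. Oligodendrocyte-like nuclei took 16.6%, 14.97%, 4.76% and 5.38% of the nuclei. The part of this make-up in the OPC-like and oligodendrocyte-like results was not tested beyond these exclusions.

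Whether the change between labels was itself larger in some neurons than in CA1-like neurons was tested with a class-by-label term and the library as a block. Only Sst-like, Pvalb-like, DG-like and L4/5 IT-like neurons were compared. The study names these types among the most altered in the same data, and CA1 as largely keeping SEL1L, so that these are not unselected classes. Asns changed more in Sst-like than in CA1-like neurons, with a log2 difference of 1.13 ± 0.23 (SE, edgeR adjusted p = 0.0102), and more in DG-like than in CA1-like neurons, by 1.61 ± 0.28 (edgeR adjusted p = 0.00213). Gpt2 changed more in Sst-like than in CA1-like neurons, by 1.12 ± 0.20 (edgeR adjusted p = 0.00346). Aldh18a1 changed more in DG-like than in CA1-like neurons, by 1.59 ± 0.37 (edgeR adjusted p = 0.0208), while its difference in Sst-like neurons was 1.07 (adjusted p = 0.0714). These were 2 of 8 members for Sst-like neurons, where 3.32% of all genes passed in either direction, and 2 of 7 for DG-like neurons, where 2.29% did. For Pvalb-like neurons 0 of 8 passed by edgeR (1.58% of all genes), with Aldh18a1 at 0.92 (edgeR adjusted p = 0.206) and Pck2 at 1.00 (0.331). DESeq2 gave no adjusted p to Pycr1 there, and none of the other members passed. For L4/5 IT-like neurons 0 of 7 passed by edgeR (0.231% of all genes), with Asns at 0.76 (edgeR adjusted p = 0.202) and Gpt2 at 0.71 (0.131). DESeq2 gave no adjusted p to Asns, Aldh18a1 and Glul there, and none of the other members tested passed. By edgeR, Aldh18a1 and Pck2 in Pvalb-like and Asns and Gpt2 in L4/5 IT-like neurons were at an unadjusted p below 0.05. So were Aldh18a1, Pycr1, Pck2 and Got1 in Sst-like neurons, where Pycr1 rested on few molecules. None of these differences passed at adjusted p. By DESeq2 none of the 4 differences that passed by edgeR did so (adjusted p from 0.138 to 0.956). Without Sel1L fl/fl 1, Gpt2 in Sst-like (1.44, 0.0101) and Asns in DG-like neurons (1.69, 0.00145) still passed, and Asns in Sst-like (1.1997, 0.0759) and Aldh18a1 in DG-like neurons (1.53, 0.0615) did not.

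**Figure D3:**
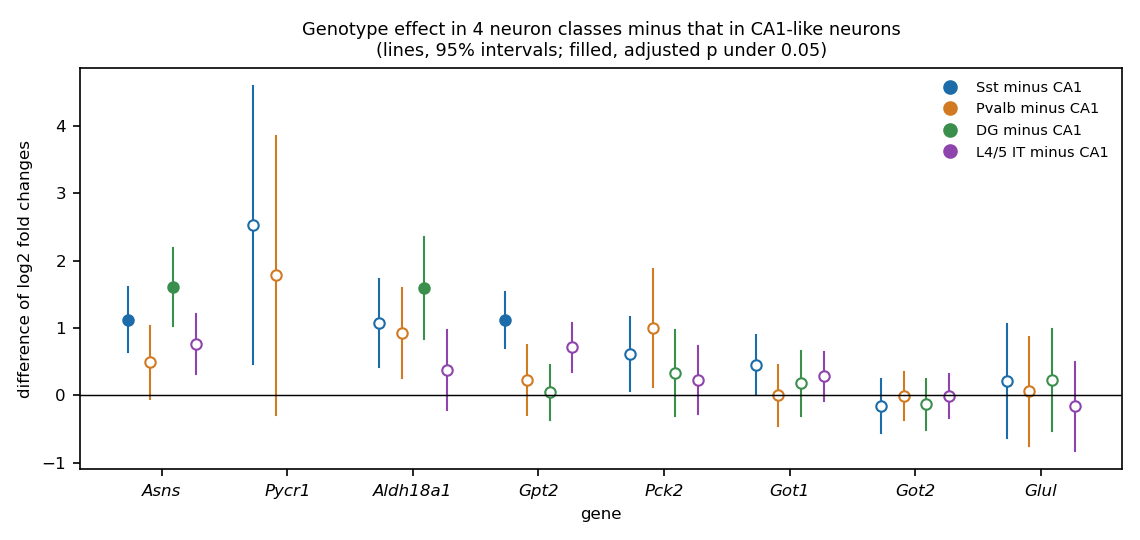
Difference in log2 fold change (Sel1L SynCre over Sel1L fl/fl) between each neuron class and CA1-like neurons for the members, with 95% intervals, so that 0 means the same change as in CA1-like neurons. Asns in DG-like neurons stands at 1.61 and Got2 in Sst-like neurons at -0.16, with an interval that spans 0.

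The share of nuclei with an Asns UMI was compared at equal depth, with each nucleus thinned to 2000 UMIs and shallower nuclei left out (exact binomial 95% intervals, which cover counting error only). In OPC-like nuclei the share was 2.38%, 2.53%, 18.4% and 10.97%, and the intervals of the Sel1L fl/fl libraries (upper bounds 4.11% and 4.61%) lay below those of the Sel1L SynCre libraries (lower bounds 14.0% and 7.29%). Without thinning it was 4.49%, 5.45%, 33.8% and 21.95%, at medians of 3760 to 4121 UMIs. More OPC-like nuclei thus held an Asns UMI in Sel1L SynCre libraries. In DG-like neurons the thinned share was 2.02%, 3.07%, 9.28% and 5.88%, and in Sst-like neurons 3.23%, 8.43%, 13.6% and 14.3%, where the intervals of Sel1L fl/fl 2 and both Sel1L SynCre libraries overlapped. In CA1-like neurons it was 3.12%, 2.75%, 1.91% and 2.84%. Free RNA also gives UMIs in nuclei that do not express a gene. Microglia-PVM-like nuclei, in which Asns was low, gave 0.573%, 1.76%, 1.04% and 0.649%, at medians of 1745.5 to 1909 UMIs before thinning. The oligodendrocyte-like shares of 0.779% and 0.783% in Sel1L fl/fl were within that range and those of 3.53% and 4.12% in Sel1L SynCre were above it.

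**Figure D4:**
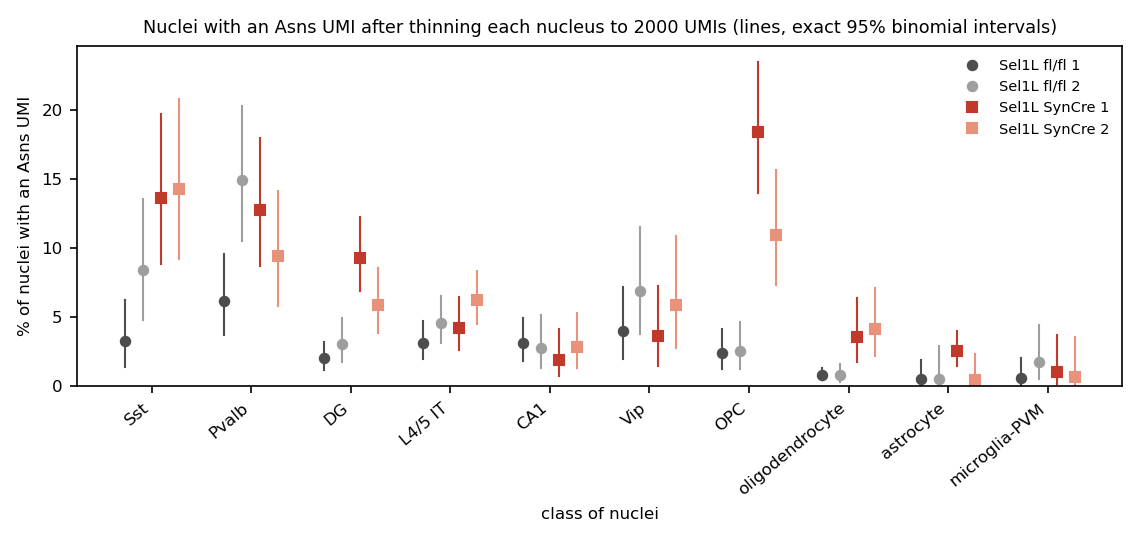
Percent of nuclei with at least 1 Asns UMI after thinning to 2000 UMIs, per class and library, with exact binomial 95% intervals. The OPC-like points of Sel1L SynCre sit at 18.4% and 10.97%, above 2.38% and 2.53% in Sel1L fl/fl, and the 4 CA1-like points lie between 1.91% and 3.12%.

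The members also differed in level between cell types. Here levels are CPM on the TMM scale, and the test compared 1 sum of astrocyte-like with 1 sum of neuron-like nuclei per library, with the library as a block. Glul was 53.4-fold higher in astrocyte-like nuclei (684 ± 92.3 against 12.8 ± 1.52 CPM, SD, n = 4 libraries, log2 difference 5.74, edgeR adjusted p = 7.75e-10). Gpt2 was also higher there (77.9 ± 21.4 against 39.5 ± 10.5 CPM, 0.97, edgeR adjusted p = 3.86e-05). The other 6 members were lower in astrocyte-like nuclei, with Aldh18a1 (-2.22), Asns (-2.12), Pycr1 (-1.49) and Pck2 (-1.42), and with Got2 at -0.62 and Got1 at -0.58. All 8 passed, where 59.9% of all genes did, so the count itself says little. In the 2 Sel1L fl/fl libraries alone the values were -2.73 for Asns, -1.88 for Aldh18a1, -1.18 for Pck2, -0.82 for Got1, -0.53 for Pycr1 and -0.51 for Got2, and Pycr1 (adjusted p = 0.598) and Got2 (0.0501) did not pass. Pycr1 also did not pass without Sel1L fl/fl 1 (0.0803).

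Summed over the named classes of each kind, inhibitory neurons held more RNA of all 8 members than excitatory neurons. Of all genes, 57.7% passed in either direction, so the count itself says little. The order did not hold class by class. In Sel1L fl/fl libraries Glul was 21.6 ± 2.41 CPM of the class in L6 CT-like and 9.22 ± 0.677 in Sst-like neurons. Pck2 was 24.9 ± 1.53 in CA1-like and 19.3 ± 0.314 in Vip-like neurons. The log2 difference was 1.08 for Asns (43.2 ± 8.71 against 20.4 ± 3.95 CPM, SD, n = 4 libraries), 1.12 for Aldh18a1, 1.18 for Pycr1, 0.61 for Pck2, 0.61 for Got1, 0.52 for Gpt2, 0.38 for Got2 and 0.38 for Glul. The direction held in 4 of 4 libraries for 7 members and in 3 of 4 for Pycr1. In the 2 Sel1L fl/fl libraries alone the difference remained at 1.07 for Asns and 0.87 for Aldh18a1, and Pycr1 no longer passed (edgeR adjusted p = 0.394). It was 0.58 for Got1, 0.51 for Glul, 0.38 for Pck2, 0.37 for Gpt2 and 0.35 for Got2 there.

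In Sel1L fl/fl libraries, the order of levels among classes differed by member (mean ± SD, n = 2, in CPM of the class, not TMM-scaled). Asns was highest in Pvalb-like neurons (46.2 ± 13.3), followed by Lamp5-like (37.9 ± 10.2), L5/6 NP-like (34.2 ± 1.29) and Sst-like neurons (33.3 ± 4.02), whose ranges overlapped one after the other, and lowest in endothelial-like nuclei (1.06 ± 1.499). Got1 (89.1 ± 1.58) and Got2 (70.4 ± 5.78) were highest in Pvalb-like neurons, with no overlap with the next class. Gpt2 was highest in OPC-like nuclei (168 ± 29.0), apart from astrocyte-like nuclei (68.0 ± 6.04), which in turn were apart from Pvalb-like neurons (42.5 ± 0.48). Aldh18a1 led in immature neuron-like nuclei (31.3 ± 3.77), whose range overlapped that of Pvalb-like neurons (26.4 ± 5.86). Pycr1 also led there (6.73 ± 1.52), and it had no UMI in Sel1L fl/fl libraries in L6b-like and Vip-like neurons. The Sel1L fl/fl sums of immature neuron-like nuclei held only 384591 and 176787 UMIs, so that this Pycr1 level rests on a few molecules. Those of endothelial-like nuclei held 471602 and 126420 UMIs, and the lowest Asns level there was 0 CPM. The places of low members in these 2 classes are therefore uncertain. Pck2 was 28.5 ± 4.38 in endothelial-like nuclei, 27.0 ± 2.40 in CA3-like, 26.1 ± 11.1 in immature neuron-like nuclei, 25.1 ± 0.352 in Sst-like and 24.9 ± 1.53 in CA1-like neurons, whose ranges overlapped one after the other, and 2.32 ± 0.369 in oligodendrocyte-like nuclei. Glul ran from 695 ± 99.6 in astrocyte-like nuclei through endothelial-like (336 ± 140), oligodendrocyte-like (205 ± 87.2) and microglia-PVM-like nuclei (176 ± 2.98) to 6.88 ± 1.03 in CA1-like and 5.59 ± 0.197 in L2/3 IT-like neurons. Over the 4 libraries, 8 astrocyte markers summed to 2023 to 2816 CPM in endothelial-like and 10547 to 11865 CPM in astrocyte-like nuclei. They summed to 194 to 230 CPM in oligodendrocyte-like and 319 to 403 CPM in microglia-PVM-like nuclei. The part of astrocyte RNA in these Glul levels was not tested. Among neuron classes, the summed level of 8 astrocyte markers over the 4 libraries and the mean Glul level in Sel1L fl/fl did not run in one order. The marker sum was 912 to 989 CPM in L6b-like (Glul 10.4 ± 1.53), 625 to 848 CPM in L5/6 NP-like (9.11 ± 0.71) and 602 to 755 CPM in L6 CT-like neurons (21.6 ± 2.41). It was 67.4 to 88.9 CPM in CA1-like (Glul 6.88 ± 1.03), 31.0 to 49.9 CPM in Pvalb-like (12.002 ± 2.26) and 25.1 to 54.4 CPM in Sst-like neurons (9.22 ± 0.677). In these 6 classes, 0 to 4 of the 8 markers were at 0 in a library, and their part in the Glul levels was not tested.

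**Figure D5:**
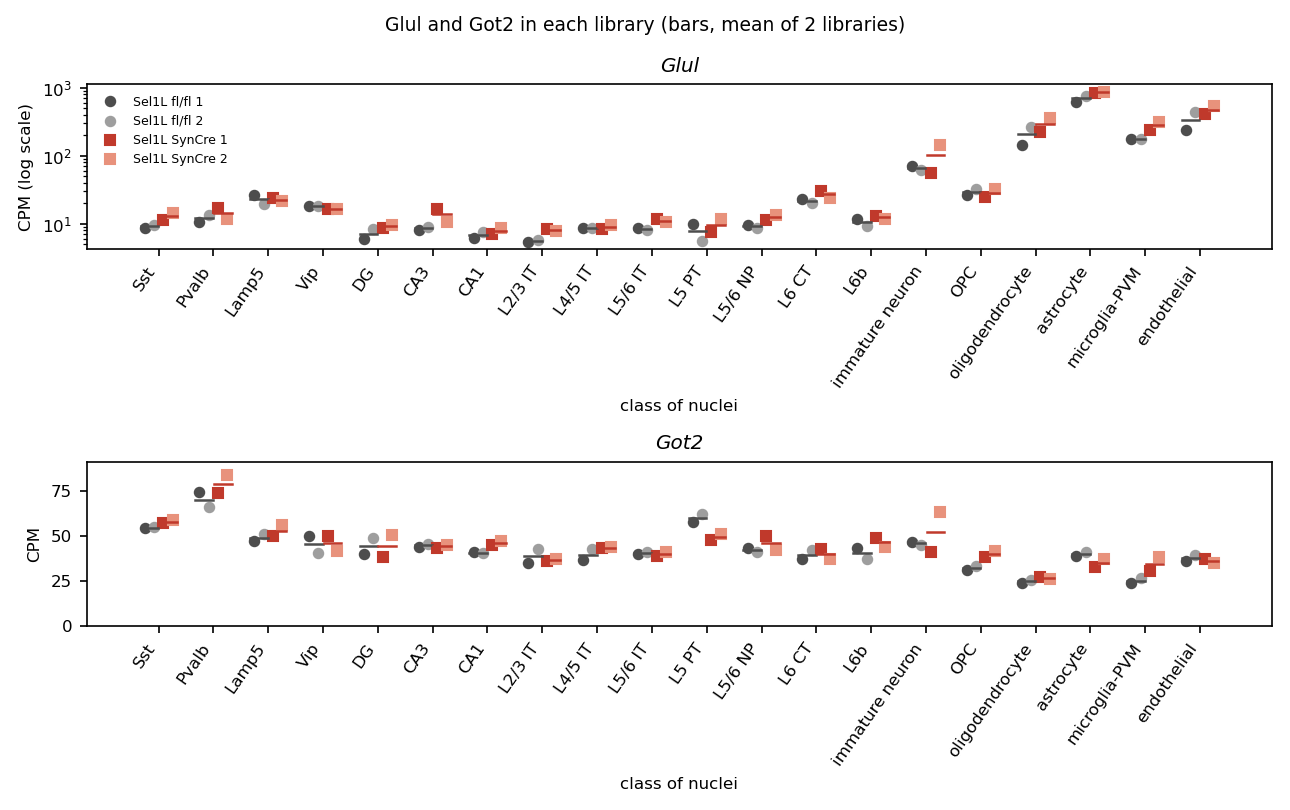
Levels of Glul (log axis) and Got2 (linear axis from 0) in CPM of the class, per library and class. The Glul points of astrocyte-like nuclei lie between 625 and 863 and those of CA1-like neurons between 6.15 and 8.53, while the Got2 points of all 20 classes lie between 23.9 and 84.1.

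Genes of neighbouring pathways were taken from lists that were chosen with earlier results of these data known, so that their counts are no independent evidence. Among 6 tested partners of asparagine and aspartate, the mitochondrial carrier Slc25a13 rose in Sst-like (log2 fold change 0.80, edgeR adjusted p = 0.0306) and fell in Pvalb-like neurons (-0.72, 0.0247), and none passed in DG-like, OPC-like, L4/5 IT-like, oligodendrocyte-like or CA1-like nuclei. Among 5 tested proline and ornithine partners, Oat, ornithine aminotransferase, rose in Sst-like (1.82, edgeR adjusted p = 0.00513) and DG-like neurons (1.27, 0.027). Prodh, which degrades proline, passed in neither (0.39 and -0.06). Of the glutamate, glutamine and alanine partners, Bcat1 and Bcat2, the branched-chain aminotransferases, passed in several classes. Bcat1 rose in Sst-like (1.41), OPC-like (1.40), DG-like (1.67), Pvalb-like (0.90), Lamp5-like (0.85) and oligodendrocyte-like nuclei (1.89), and Bcat2 in Sst-like (1.54), DG-like (1.58) and Pvalb-like neurons (1.57). Gls2 rose in DG-like neurons (0.89) and Slc25a18 in OPC-like nuclei (1.95). Among the phosphoenolpyruvate partners 0 passed in any of the 20 classes by edgeR, with a lowest adjusted p of 0.0763 (Me1 in Sst-like neurons).

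Genes of the stress lists also rose in classes where no member passed. Derl3, 1 of them, had only 51 and 40 UMIs in the Sel1L fl/fl libraries. A gene this scarce can enter a class test through the Sel1L SynCre libraries alone. The counts, the medians and the contrast with CA1-like neurons below depend in part on that filter, and are no independent evidence of a direction. Of 18 ATF4-linked genes, which include Ddit3, Trib3 and Phgdh, 17 of 18 tested were higher in Sst-like neurons (median log2 fold change 2.10, against 0.01 for all genes tested). The counts were 13 of 15 in OPC-like (median 2.00), 10 of 18 in Pvalb-like (1.44), 10 of 17 in L4/5 IT-like (1.46), 7 of 14 in DG-like (1.35) and 4 of 12 in oligodendrocyte-like nuclei (0.66), and 0 of 11 in CA1-like neurons (-0.04). Of 12 ER quality control genes, among them the chaperone Hspa5, 12 of 12 were higher in Sst-like (median 2.34), Pvalb-like (1.92) and DG-like neurons (2.12), 11 of 12 in OPC-like (1.75), 8 of 12 in L4/5 IT-like (1.02), 5 of 12 in oligodendrocyte-like nuclei (1.28) and 0 of 11 in CA1-like neurons (0.18). The Lamp5-like class held 101 to 133 nuclei per library. Over the main and alternative fits there, log2 fold changes were 0.21 to 0.86 for Asns and 0.56 to 1.25 for Aldh18a1. They were 0.57 to 0.95 for Gpt2 and 0.63 to 0.93 for Pck2, and spanned 0 for Got1, Got2 and Glul. In these neurons, where 0 members passed in the main fit, 10 of 12 ER quality control genes (median 1.89) and 4 of 15 ATF4-linked genes (1.19) were higher. ER quality control genes also rose in L6 CT-like (5 of 12), CA3-like (3 of 12) and L5/6 NP-like neurons (3 of 12), and 1 ATF4-linked gene rose in each of 4 such classes, which was Ddit4 in microglia-PVM-like nuclei and Ddit3 in L6 CT-like, L2/3 IT-like and L5/6 IT-like neurons.

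The genes whose level pattern was most like that of 7 members over the 80 class sums (20 classes in 4 libraries, 17197 genes compared) are given as a description, since sums of 1 library share its mouse and its depth. Asns was most like Gars, a glycyl-tRNA synthetase (Pearson r = 0.85), and Aldh18a1 (0.82). Aldh18a1 was in turn like Cars, a cysteinyl-tRNA synthetase (0.79). Pycr1 was like Paxbp1 (0.64) and Aldh1l2 (0.64). Gpt2 was most like Sycp2 (0.73) and Pck2 like Gpr137b (0.72). Got2 was most like Cplx1 (0.85), and Glul like Selenop (0.95) and Cd81 (0.93).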

How the data were processed

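The authors sorted nuclei stained with propidium iodide, made libraries with the 10x Genomics Chromium 3′ v3 chemistry and processed the reads with Cell Ranger (version 6.1.0 in the submitters' processing notes, build GRCm38). The deposited matrices hold raw UMI counts per gene and barcode, whole numbers that the authors had not normalized. Strand and intron settings of the counting are not given in the sources used here.

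Nuclei with more than 600 genes and under 5% mitochondrial UMIs were kept. Doublets were scored with Scrublet in scanpy (version 1.11.5) and removed at an expected rate that grew with the nuclei of a library (5.893% to 10.079%). Libraries were integrated and clustered in Seurat (version 5.3.0, 2000 variable features, 17 dimensions, resolution 0.2 for all nuclei and 0.4 for neurons). Neuron clusters were named by a rule set after the clusters were seen. A marker counted if it was in at least 10% of nuclei and at least 2 times the level in other neurons, and 66.7% of a list had to be met (4 markers for L5/6 IT). The name also needed more of its own markers among the 10 leading genes than of any other class, or all of its markers with no other class ahead, and inhibitory names needed a Gad2 UMI in 50% of nuclei. Clusters that missed the rule stayed unnamed and entered no class. The endothelial-like cluster was also led by the vascular leptomeningeal genes Cped1 and Slc6a13.

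UMIs were summed per class and library for classes with at least 20 nuclei in every library. Labels were compared with edgeR (version 4.0.16, quasi-likelihood test, TMM scaling, filterByExpr, prior count 0.125, threshold 0.05 on Benjamini-Hochberg adjusted p over all genes of a class, two-sided). Each standard error is the size of the log2 fold change over the root of its F statistic. DESeq2 (version 1.42.0) was an alternative, beside other scalings, filters, doublet settings, class names, a replicate block and the removal of each library. The fits were tested on simulated data. P-values weigh the difference between labels against a spread estimated from 2 mice per label and moderated over the genes of a class. The 2 mice of each label differed in sex, so that this spread includes any effect of sex. Intervals of fold changes come from the edgeR fit and include the spread between libraries, while the binomial intervals of shares cover counting error only. The 8 genes, the partner lists and the markers were chosen with earlier results of these data known. The rule for genes named in the text was all 8 members, plus list genes that passed in a class described. The alternatives without the library labelled Sel1L fl/fl 1 in the class comparisons, and those that set aside OPC-like nuclei, were chosen after seeing the data. The genes most like Got1 in their level pattern are not reported here.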

Additional observations from a re-analysis of the deposited data

Results flagged for a closer look

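Among the 4 neuron classes chosen for comparison with CA1-like neurons, differences of the label effect stood out for 4 pairs, each by a test of the difference itself. Asns changed by 1.13 more on the log2 scale in Sst-like than in CA1-like neurons, and Gpt2 by 1.12 more. Asns changed by 1.61 more and Aldh18a1 by 1.59 more in DG-like than in CA1-like neurons. None of the 4 passed with DESeq2, whose adjusted p-values ranged from 0.138 to 0.956, and 2 of them, Gpt2 in Sst-like and Asns in DG-like neurons, passed without the library labelled Sel1L fl/fl 1.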

How the results depend on the processing

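The 15 calls of a member in a class were refitted in 217 alternative fits, of which 184 kept the direction and the call, 33 kept the direction without the call, and 0 turned the direction. These totals are no measure of robustness. The fits with a prior count of 2 reuse the p-values of the main fit and cannot lose a call. The fits on nuclei with more than 200 genes use nearly the same nuclei as the main fit. In counts of members that passed, no filter on low counts gave 0 in DG-like (2 in the report), 0 in Pvalb-like (1), 3 in Sst-like (6) and 0 in oligodendrocyte-like nuclei (1), and DESeq2 gave 1, 0, 3 and 0 in the same order, and 1 in L5/6 IT-like neurons (0). A minimum of 10 counts in every library also gave 1 in L5/6 IT-like neurons. Keeping doublets gave 2 in Pvalb-like and 0 in oligodendrocyte-like nuclei. The earlier edgeR fit gave 0 in Pvalb-like neurons, as did class names without integration, which gave 2 in L4/5 IT-like neurons (1). Lamp5-like and immature neuron-like nuclei got no name in that clustering and have no value there. The stricter OPC rule with 8 markers left 2 of 4, both of genes that entered that fit only through the Sel1L SynCre libraries. Leaving out 1 library also moved the counts in DG-like, L2/3 IT-like, L5/6 IT-like, Pvalb-like, Sst-like, microglia-PVM-like and oligodendrocyte-like nuclei. For the class-by-label differences, DESeq2 gave 0 in Sst-like and 0 in DG-like neurons (2 each), leaving out Sel1L fl/fl 1 gave 1 in each, and Vip-like neurons as reference gave 1 in L4/5 IT-like neurons (0). With that reference 3 members passed in Sst-like neurons (2 with CA1-like neurons as reference). The cause of these shifts was not tested. Each fit without 1 library leaves 1 mouse under a label and measures no spread there, so that its counts are a description only. With the replicate block, 1 member passed in L2/3 IT-like, 2 in L4/5 IT-like, 1 in L5/6 IT-like, 1 in Lamp5-like, 3 in Pvalb-like, 1 in microglia-PVM-like and 3 in oligodendrocyte-like nuclei. The 3 include Aldh18a1, which entered the oligodendrocyte-like test only through the Sel1L SynCre libraries. The block also moved the number of all genes that passed. It went from 1 to 61 of 13225 in CA1-like, from 536 to 853 of 13055 in DG-like and from 4 to 0 of 12134 in CA3-like neurons. The number of a replicate is not given as a shared litter or day, it coincides with sex, and deviations of same-numbered libraries correlated between -0.131 and 0.084, so that the replicate block is not taken as a pairing.

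Thinned to 4000 UMIs or not thinned, which changes the shares themselves, the difference between labels in the share with an Asns UMI moved by more than the larger SD within a label in 29 of 40 recomputed values and kept its sign in 36. Depth sets limits for Pycr1, tested in 3 classes, and for small classes, down to 61 nuclei in a library.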

Other observations

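In L4/5 IT-like neurons of the libraries labelled Sel1L SynCre, nuclei with a Derl3 UMI held more Asns than those without, at 57.7 against 21.6 CPM of those nuclei in Sel1L SynCre 1 and 46.7 against 27.9 in Sel1L SynCre 2. Pck2 was 57.7 against 20.4 and 28.5 against 19.8. In DG-like neurons Asns was 56.8 against 54.6 and 33.0 against 24.6, and in Sst-like neurons 86.8 against 53.1 and 73.2 against 68.5. In Pvalb-like neurons it was 75.7 against 78.3 and 40.3 against 50.004, so that the nuclei without a Derl3 UMI were the higher ones in both libraries. Pck2 was 59.6 against 46.1 and 43.4 against 36.8 in Sst-like neurons. It was lower with a Derl3 UMI in DG-like (8.79 against 9.09 and 4.89 against 8.21) and Pvalb-like neurons (68.5 against 70.2 and 23.4 against 31.0). Nuclei with a Derl3 UMI were also deeper, and these values were taken without a test, since nuclei of 1 library are not replicates.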
